A study of Mus musculus with 12 samples.

Results

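The synaptic vesicle fusion genes were those whose symbol belongs to the synaptotagmin, syntaxin, VAMP, SNAP, complexin, synapsin, Rab3, SV2, Unc13 or Rims families, together with Syp and Nsf. Each gene was read from its probe set with a single gene symbol, and the brightest one was taken where a gene had several. The rule used names and not responses, and found 65 genes of the 19938 measured on the array. Of these, 62 passed a filter on dim genes and were tested among 14953 genes. The complexins Cplx3 and Cplx4 and the syntaxin Stx19 were too dim to test. Snap91 entered through its symbol, although it encodes AP180, an adaptor for clathrin-mediated retrieval of vesicles.

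Hypothalamic RNA came from male C57BL/6J mice, 23 weeks old, made obese by 20 weeks of a diet with 45% fat, begun when they were 3 weeks old. Every mouse was injected intraperitoneally with DMSO for 4 days. Over a further 4 days the mice received withaferin A (2 mg/kg daily, 4 arrays), celastrol (100 ug/kg daily, 4 arrays) or DMSO, the vehicle (4 arrays). The labels call the arrays of a group biological replicates. Withaferin A is a steroidal lactone of the plant Withania somnifera, and celastrol is a triterpenoid of thunder god vine, so the comparisons ask what each agent did to hypothalamic RNA in obese mice.

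Neurotransmitters and many neuropeptides leave a neuron when vesicles fuse with its plasma membrane. Fusion is driven by SNARE proteins: a vesicle SNARE of the VAMP family pairs with syntaxin and SNAP-25 on the plasma membrane, and NSF takes the spent complexes apart. Rab3, RIM and Munc13 proteins dock and prime the vesicle, complexins hold the assembled SNAREs, and synaptotagmins read calcium. Hypothalamic neurons that control feeding use this machinery to release both fast transmitters and peptides.

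None of the 62 genes passed the test after either agent, nor between the agents. The test was limma's moderated test on log2 signals, with Benjamini-Hochberg adjustment over all 14953 genes and a threshold of 0.05. In withaferin A against DMSO hypothalami, 0 of 62 passed, where 0% of all genes did, and the smallest adjusted p of a member was 0.155. In celastrol against DMSO hypothalami, 0 of 62 passed, where 0.769% of all genes did, and the smallest was 0.29. In withaferin A against celastrol hypothalami, 0 of 62 passed, where 0.0468% of all genes did, and the smallest was 0.159. Both agents were set against the same 4 DMSO arrays, so these comparisons are not independent, and the doses of the agents differ.

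The intervals bound the size of the differences. The 95% interval of the difference lay within 1.25-fold either way, which is 0.32 on the log2 scale, for 54 of 62 members after withaferin A, where 73.3% of all genes did. It did so for 58 of 62 members after celastrol, where 79.6% of all genes did, and for 52 of 62 members between the agents, where 72.7% did. The lowest and highest ends of the members' intervals were −0.34 and 0.48 after withaferin A, −0.37 and 0.43 after celastrol, and −0.36 and 0.52 between the agents. Because the tissue was measured in bulk, fewer cells of a type and less RNA per cell cannot be told apart.

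**Figure D1:**
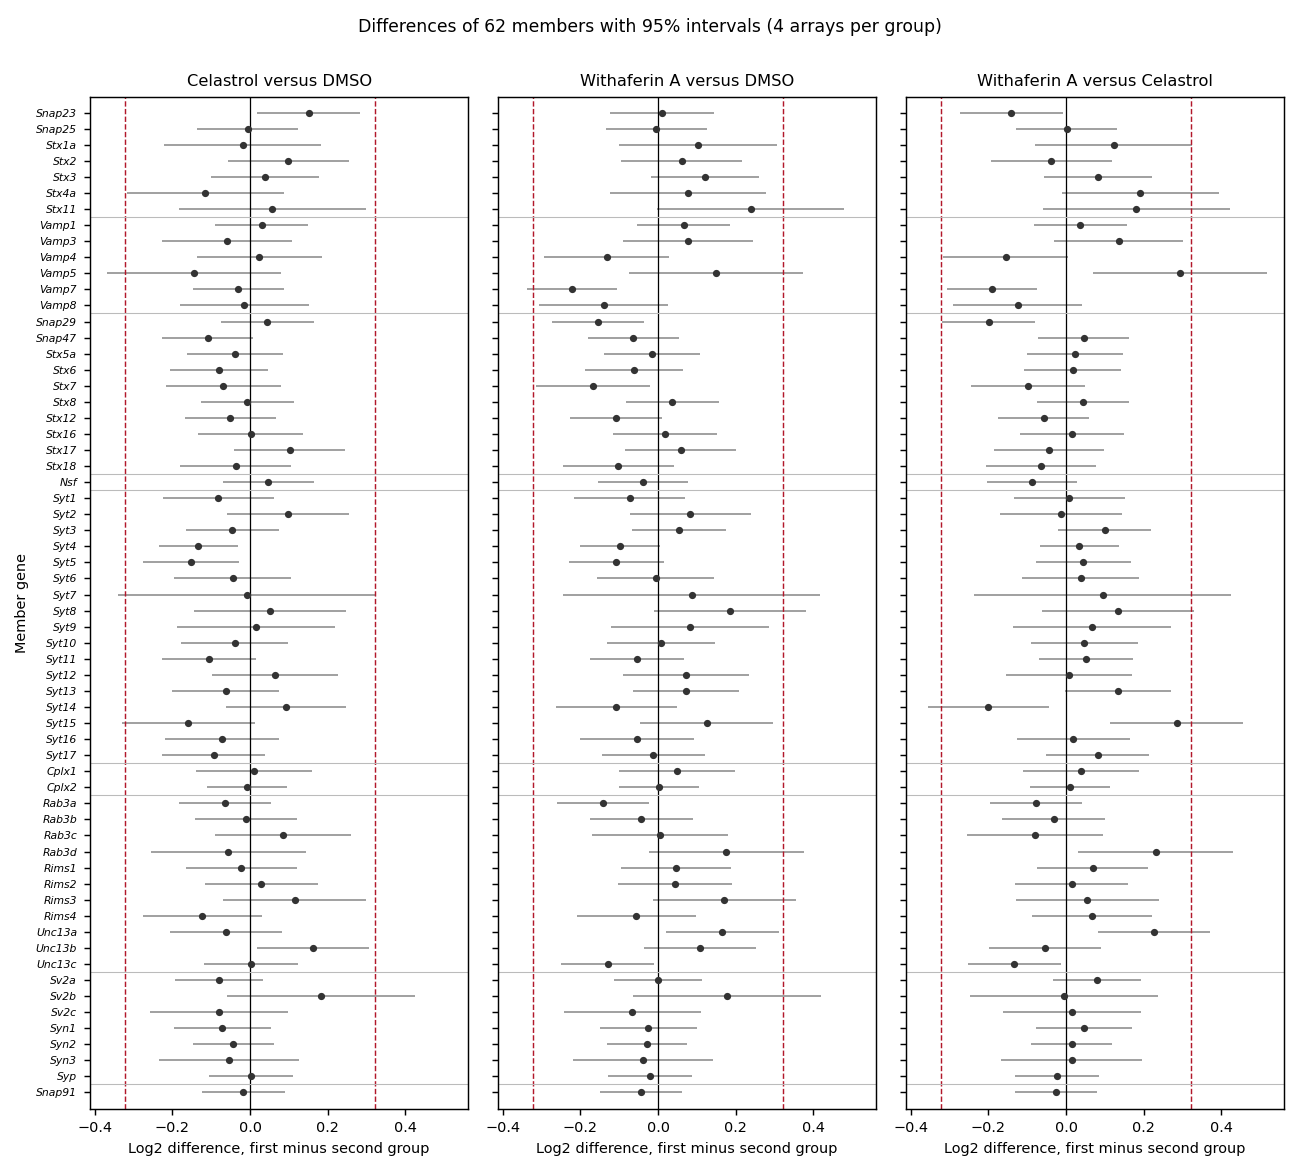
Log2 difference of each of the 62 tested members in 3 panels, celastrol minus DMSO, withaferin A minus DMSO and withaferin A minus celastrol (points, with 95% intervals from limma); dashed lines mark 1.25-fold. Most intervals stay between the dashed lines, and none of the members passed the adjusted threshold.

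The 2 promoters printed here are those of the members that hold part of RE1, the element bound by REST, a repressor of neuronal genes. The windows come from RefSeq (GRCm38.p6) and run from 250 bases before to 50 bases after the start of the gene. Capitals mark the motif matches: TTCAGCACC (the left part of RE1), the longer right part of RE1 and TGACGTCA (the cyclic AMP response element, CRE), each searched on both strands. Unc13a encodes Munc13-1, the priming factor of most central synapses, at chr8:71671708-71672007 (minus strand). Syn1 encodes synapsin 1, which tethers vesicles in the reserve pool, at chrX:20920869-20921168 (minus strand).
Unc13a: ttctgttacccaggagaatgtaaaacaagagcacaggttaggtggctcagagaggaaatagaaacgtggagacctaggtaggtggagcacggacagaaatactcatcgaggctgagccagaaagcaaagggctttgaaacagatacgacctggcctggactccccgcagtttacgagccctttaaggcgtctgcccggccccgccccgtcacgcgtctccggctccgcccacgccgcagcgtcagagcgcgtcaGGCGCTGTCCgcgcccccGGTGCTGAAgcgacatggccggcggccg
Syn1: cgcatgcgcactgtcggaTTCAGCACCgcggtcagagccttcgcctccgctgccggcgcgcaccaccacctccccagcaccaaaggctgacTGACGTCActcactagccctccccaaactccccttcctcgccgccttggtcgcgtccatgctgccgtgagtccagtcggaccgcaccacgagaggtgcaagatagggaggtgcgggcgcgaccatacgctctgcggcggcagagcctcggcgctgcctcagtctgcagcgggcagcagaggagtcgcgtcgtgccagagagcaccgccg
Both RE1 parts in the Unc13a window lie on the strand opposite to the gene and so appear in reverse complement, while the left part in the Syn1 window is read along the gene. The CRE is its own reverse complement and has no strand. RefSeq windows matched 52 of the 65 members. The left part was found in 2 of 52 members (3.85%) and in 0.433% of 27025 genes, and the right part in 1 of 52 (1.92%) and in 0.167% of all genes. The CRE was found in 1 of 52 members (1.92%) and in 2.03% of all genes. A GC box (GGGCGG) was in 41 of 52 members (78.8%) against 38.2% of all genes, in windows whose median GC content was 62.7% in members and 52.8% in all genes. A TATA box (TATAAA) was in 4 members (7.69%) against 15.7% of all genes. A heat shock element was in 0 members and 0.662% of all genes, a glucocorticoid response element (ACANNNTGT) in 7 members (13.5%) and 7.9%, and the lysosomal CLEAR element in 0 members and 0.37%.

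The plasma membrane SNAREs receive the vesicle. Snap25, the neuronal partner of syntaxin at the plasma membrane, had log2 signals of 13.86, 13.91, 13.86 and 13.95 in withaferin A hypothalami, 13.95, 13.90, 13.93 and 13.80 in celastrol hypothalami, and 13.95, 13.78, 13.84 and 14.02 in DMSO hypothalami. The groups overlapped throughout, and the DMSO arrays held both the lowest and the highest value. The differences were −0.0041 ± 0.06 (SE) after withaferin A and −0.0056 ± 0.06 after celastrol. Stx1a, the syntaxin of the synaptic membrane, differed from DMSO by 0.10 ± 0.09 after withaferin A and by −0.02 ± 0.09 after celastrol.

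Snap23, the relative of Snap25 found in most cell types, had 9.65, 9.74, 9.76 and 9.84 in celastrol hypothalami and 9.64, 9.62, 9.55 and 9.58 in DMSO hypothalami. All 4 celastrol arrays lay above all 4 DMSO arrays. The difference was 0.15 ± 0.06 and did not pass (limma adjusted p = 0.387). The withaferin A arrays, at 9.66, 9.46, 9.60 and 9.72, lay on both sides of the DMSO arrays. Stx11, a syntaxin known from immune cells, had the highest value of all members after withaferin A, at 0.24 ± 0.11. Of the 7 tested plasma membrane SNAREs, 6 had a value above 0 after withaferin A, against 48.5% of all genes. After celastrol 4 did, against 42.6%, and the median differences were 0.08 and 0.04. With the quantile normalization renewed the counts were 7 and 5, against 7644 and 7113 of 14953 genes. With arrays centred on their medians they were 6 and 5, against 6752 and 7190 of all genes.

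Vamp7, a SNARE of late endosomes and of vesicles that fuse without the fast synaptic trigger, gave the lowest value among members after withaferin A. Its log2 signals were 9.50, 9.37, 9.40 and 9.38 in withaferin A hypothalami, 9.53, 9.70, 9.62 and 9.57 in celastrol hypothalami, and 9.70, 9.64, 9.60 and 9.60 in DMSO hypothalami. All 4 withaferin A arrays lay below all 8 others. The difference was −0.22 ± 0.05 from DMSO (95% interval −0.34 to −0.10, limma adjusted p = 0.155) and −0.19 ± 0.05 from celastrol (adjusted p = 0.16). It was −0.03 ± 0.05 between celastrol and DMSO. Across 24 alternative settings the smallest adjusted p among the members named by rule in each comparison was 0.0587, for Vamp7 in withaferin A against DMSO hypothalami when DMSO replicate 3 was left out.

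The other vesicle SNAREs had values on both sides of 0. Over all 6 vesicle SNAREs, the highest value after withaferin A was 0.15 (Vamp5), and after celastrol the values ran from −0.14 (Vamp5) to 0.03 (Vamp1). Vamp1, which serves fast release in parts of the nervous system, differed from DMSO by 0.07 ± 0.06 after withaferin A and by 0.03 ± 0.06 after celastrol. Vamp5, known from muscle, had the highest value of all members between the agents, at 0.29 ± 0.10. Its signals were 7.66, 7.61, 7.39 and 7.46 in withaferin A hypothalami and 6.997, 7.41, 7.14 and 7.39 in celastrol hypothalami. Celastrol replicates 2 and 4 exceeded the lowest withaferin A array, and the adjusted p was 0.214. Vamp8, a SNARE of endosomes and secretory granules encoded next to Vamp5 on chromosome 6, had a value of −0.12 ± 0.08 between the agents. Vamp2, the main VAMP of forebrain synapses, is represented by a probe set shared with Ubr3 and is outside the rule.

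Intracellular SNAREs act mainly on routes between Golgi, endosomes and lysosomes. Snap29, which works with Stx17 in fusion of autophagosomes, had 8.44, 8.43, 8.52 and 8.51 in withaferin A hypothalami, 8.77, 8.60, 8.63 and 8.70 in celastrol hypothalami, and 8.58, 8.68, 8.57 and 8.69 in DMSO hypothalami. The withaferin A arrays lay below all other arrays. The difference was −0.15 ± 0.06 from DMSO (adjusted p = 0.235) and −0.20 ± 0.06 from celastrol (limma adjusted p = 0.159). Stx7, a syntaxin of late endosomes, had a value of −0.17 ± 0.07 after withaferin A (adjusted p = 0.269), and Stx17 had 0.06 ± 0.07. The 10 members of this group ran from −0.17 (Stx7) to 0.06 (Stx17) after withaferin A and from −0.11 (Snap47) to 0.10 (Stx17) after celastrol. Of these, 7 had values below 0 after withaferin A, with a median of −0.06, and 7 did after celastrol, with a median of −0.04. Over all 14953 genes, 7707 values lay below 0 after withaferin A and 8585 after celastrol. The group's counts below 0 were 6 and 6 with renewed quantile normalization, against 7308 and 7839 of all genes. With arrays centred on their medians they were 7 and 6, against 8201 and 7763 of all genes.

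**Figure D2:**
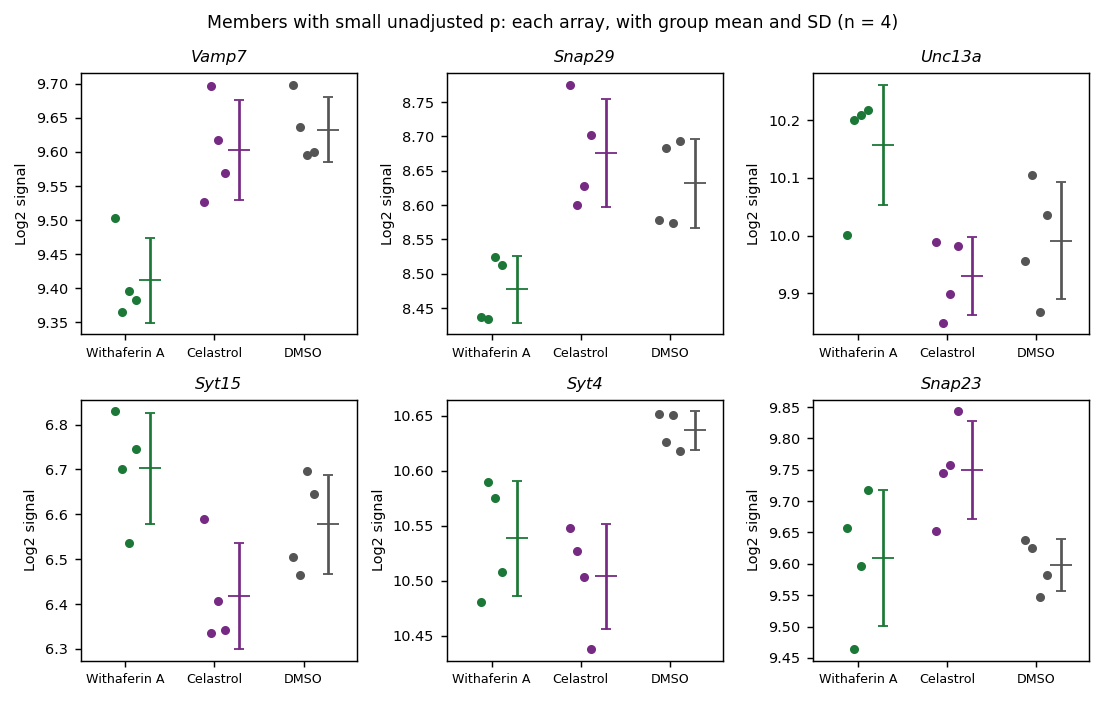
Log2 signal per array (points) with group mean and SD (bars) for Vamp7, Snap29, Unc13a, Syt15, Syt4 and Snap23 in withaferin A, celastrol and DMSO hypothalami (4 arrays each). Vamp7 and Snap29 lie lower in all 4 withaferin A arrays than in the other 8, Syt4 is lower in both treated groups than in DMSO, and none of these differences passed the adjusted threshold.

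Docking and priming genes had values in both directions. After withaferin A the 11 tested genes ran from −0.14 (Rab3a) to 0.18 (Rab3d), and after celastrol from −0.12 (Rims4) to 0.16 (Unc13b). Unc13a had 10.002, 10.20, 10.21 and 10.22 in withaferin A hypothalami, 9.99, 9.85, 9.90 and 9.98 in celastrol hypothalami, and 9.96, 10.10, 9.87 and 10.04 in DMSO hypothalami. All 4 withaferin A arrays lay above all 4 celastrol arrays and overlapped the DMSO arrays. The difference was 0.17 ± 0.07 from DMSO (adjusted p = 0.268) and 0.23 ± 0.07 from celastrol (limma adjusted p = 0.176). Its 2 other probe sets gave 0.06 ± 0.06 and 0.17 ± 0.13 against DMSO. Against celastrol they gave 0.11 ± 0.06 and 0.09 ± 0.13, lower than the probe set used.

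Unc13c, a Munc13 of cerebellum-rich expression, was read by 7 probe sets. The one used gave −0.13 ± 0.06 after withaferin A (adjusted p = 0.283), and the others ranged from −0.66 ± 0.21 to 0.05 ± 0.08. Only the probe set at 0.05, as bright as the one used (both 10.09), lay above 0. The gene's probe sets thus do not share one value. Unc13b, the other brain Munc13, had the highest value of this group after celastrol, at 0.16 ± 0.07 (adjusted p = 0.395). Rab3a, the most abundant vesicle Rab of neurons, had 10.94, 10.90, 10.86 and 10.73 in withaferin A hypothalami and 11.04, 10.97, 10.94 and 11.04 in DMSO hypothalami. The 2 sets of arrays met at one value, 10.94, to 2 decimals, without overlap, and the difference was −0.14 ± 0.06 (limma adjusted p = 0.256). The scaffold gene Rims1 differed from DMSO by 0.05 ± 0.07 after withaferin A and by −0.02 ± 0.07 after celastrol.

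The 17 synaptotagmins ran from −0.11 (Syt5) to 0.18 (Syt8) after withaferin A and from −0.16 (Syt15) to 0.10 (Syt2) after celastrol. Among them Syt1, the calcium sensor of fast release, differed from DMSO by −0.07 ± 0.07 after withaferin A and by −0.08 ± 0.07 after celastrol. Syt4, a synaptotagmin of peptide-containing vesicles that does not bind calcium in the usual way, gave the smallest p among members after celastrol. It had 10.48, 10.59, 10.58 and 10.51 in withaferin A hypothalami, 10.55, 10.53, 10.50 and 10.44 in celastrol hypothalami, and 10.65, 10.63, 10.65 and 10.62 in DMSO hypothalami. All 8 treated arrays lay below all 4 DMSO arrays, which spanned a narrow range. The difference was −0.13 ± 0.05 after celastrol (limma adjusted p = 0.29) and −0.10 ± 0.05 after withaferin A (adjusted p = 0.335).

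Syt5, another synaptotagmin, had a value of −0.15 ± 0.06 after celastrol (adjusted p = 0.32). Syt15, a synaptotagmin that lacks calcium binding, came just after Snap29 in order of p between the agents. Its signals were 6.83, 6.70, 6.54 and 6.75 in withaferin A hypothalami and 6.59, 6.34, 6.41 and 6.34 in celastrol hypothalami. The lowest withaferin A array lay below the highest celastrol array, and the difference was 0.28 ± 0.08 (limma adjusted p = 0.16). Between the agents, 15 of 17 synaptotagmins had values above 0, against 54.9% of all genes. The count was 15 with renewed quantile normalization, against 7950 of 14953 genes, and 12 with arrays centred on their medians, against 6907 genes. The 2 exceptions in the values as deposited were Syt14, at −0.20 ± 0.07, the lowest of all members, and Syt2, at −0.01 ± 0.07.

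Most genes of the vesicle itself had values near 0. The 7 vesicle membrane and synapsin genes ran from −0.07 (Sv2c) to 0.18 (Sv2b) after withaferin A and from −0.08 (Sv2c) to 0.18 (Sv2b) after celastrol. Syp, a major membrane protein of the synaptic vesicle, differed from DMSO by −0.02 ± 0.05 after withaferin A and 0.0025 ± 0.05 after celastrol. Sv2a, which binds the antiepileptic levetiracetam, gave −0.00016 ± 0.05 after withaferin A and −0.08 ± 0.05 after celastrol. The synapsins Syn1 and Syn2, which tether the reserve pool, gave −0.02 ± 0.06 and −0.03 ± 0.05 after withaferin A, and −0.07 ± 0.06 and −0.04 ± 0.05 after celastrol. Nsf, the ATPase that recycles SNAREs, gave −0.04 ± 0.05 after withaferin A and 0.05 ± 0.05 after celastrol, and Snap91 gave −0.04 ± 0.05 and −0.02 ± 0.05. The complexins Cplx1 and Cplx2 gave 0.05 ± 0.07 and 0.0034 ± 0.05 after withaferin A and 0.01 ± 0.07 and −0.0072 ± 0.05 after celastrol.

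**Figure D3:**
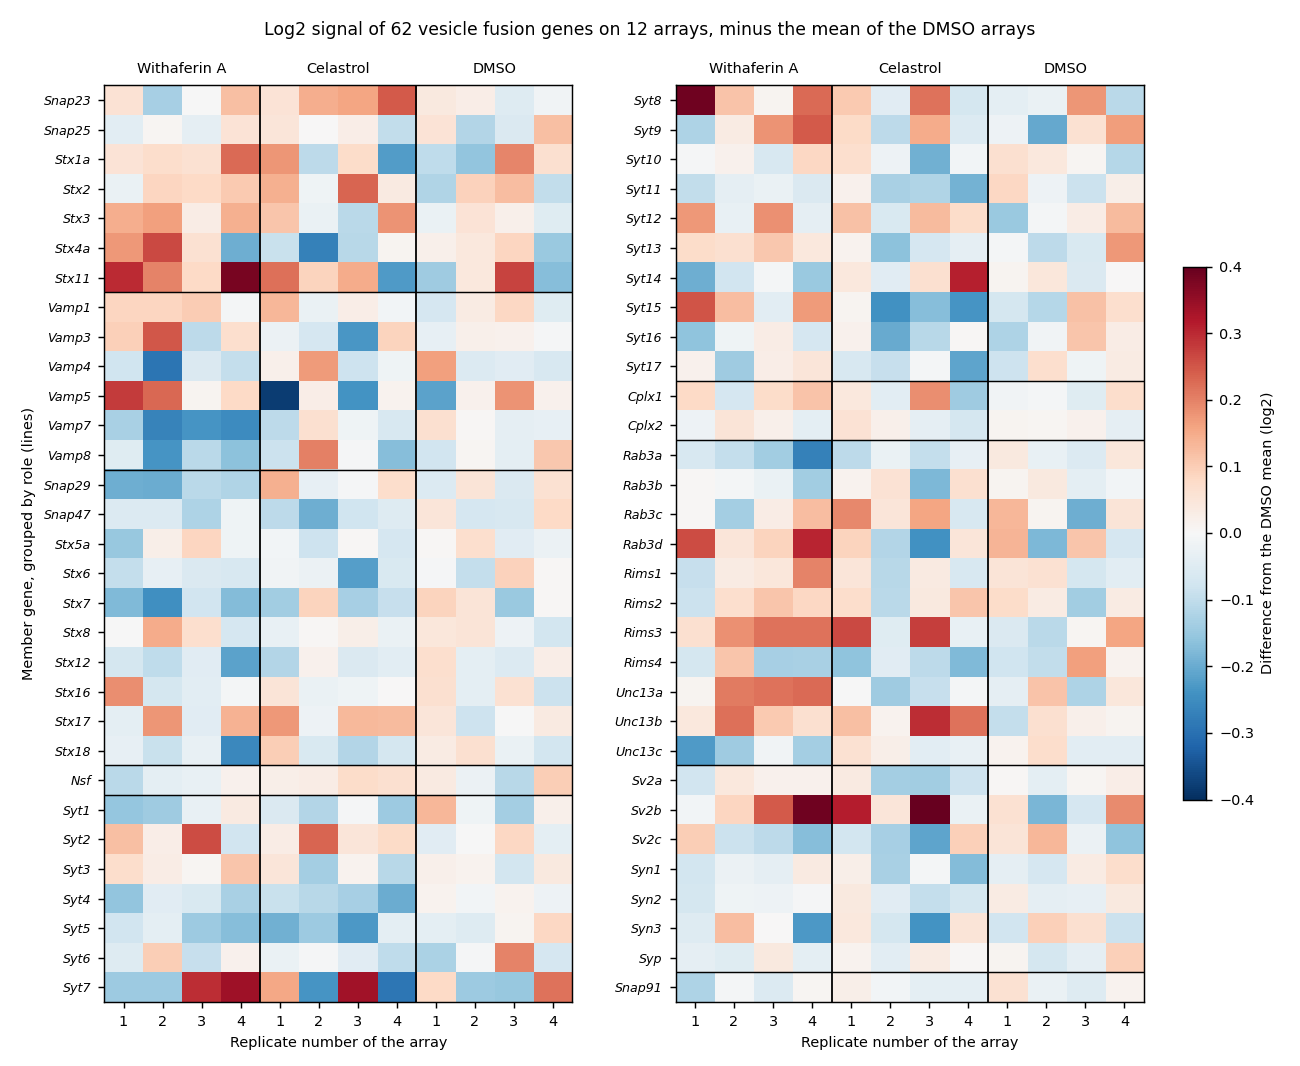
Log2 signal of the 62 tested members (rows, grouped by role) in the withaferin A, celastrol and DMSO arrays (columns), each minus the mean of the DMSO arrays. Colours are pale for most members, and the rows with the strongest colours, such as Syt7 and Sv2b, vary among arrays of the same group.

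In the values as deposited, the members taken as a whole gave medians close to those of all genes. After withaferin A the median difference was 0.0016, against −0.0041 over all genes, and 31 of 62 values lay above 0 (50%, against 48.5% of all genes). After celastrol the median was −0.02, against −0.02 over all genes, and 23 of 62 values lay above 0 (37.1%, against 42.6% of all genes). Between the agents the median was 0.02, against 0.01 over all genes, and 41 of 62 values lay above 0 (66.1%, against 54.9%). Under renewed quantile normalization the counts above 0 were 44, 29 and 42 in the same order, against 7644, 7113 and 7950 of 14953 genes. The members' medians were then 0.0485, −0.0054 and 0.0408, against 0.00299, −0.00525 and 0.00828 over all genes. With arrays centred on their medians the counts were 28, 28 and 30, against 6752, 7190 and 6907 of all genes. The direction of the whole list, and its distance from all genes, thus depend on the scaling.

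Before adjustment, 6 of 62 members had a limma p under 0.05 after withaferin A (1 higher, 5 lower), or 9.68%, against 15.7% of all genes. After celastrol 4 did (2 higher, 2 lower), or 6.45%, against 10.4%. Between the agents 9 did (4 higher, 5 lower), or 14.5%, against 16.1%. Groups without overlap numbered 4 of 62 members after withaferin A, or 6.45%, against 7.6% of all genes. They numbered 2 of 62 after celastrol, or 3.23%, against 7.21%, and 5 of 62 between the agents, or 8.06%, against 9.27%. In these counts the members' share stayed below the share of all genes, by small margins between the agents. Whether the shares differ was not tested.

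Other genes of vesicle release and recycling were read from 4 lists. The SNARE regulators (20 tested), active zone scaffolds (14), vesicle recycling genes (19) and other vesicle membrane genes (19) had 0 genes that rose and 0 that fell in each comparison. Before adjustment, limma p was under 0.05 after withaferin A for 1 of the SNARE regulators, 0 active zone scaffolds, 2 recycling genes and 2 other membrane genes, where 15.7% of all genes were. After celastrol it was so for 3, 1, 0 and 1 genes of these lists, where 10.4% of all genes were. Between the agents it was so for 3 SNARE regulators (15%), 5 of 14 active zone scaffolds (35.7%, 4 higher and 1 lower), 1 recycling gene and 1 other membrane gene, where 16.1% of all genes were. Stxbp4, a syntaxin-binding protein, had 8.33 as its mean in withaferin A hypothalami against 8.73 in DMSO hypothalami, a difference of −0.41 ± 0.13 (adjusted p = 0.191). Stxbp3, also known as Munc18c, had 8.57 in celastrol hypothalami against 8.14 in DMSO hypothalami, a difference of 0.43 ± 0.10 (limma adjusted p = 0.0786), the closest to the threshold in these lists. Slc32a1, which loads GABA into vesicles, gave −0.23 ± 0.07 after celastrol (adjusted p = 0.175). Sypl, a relative of synaptophysin, gave −0.22 ± 0.07 after withaferin A (adjusted p = 0.209).

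Arrays and tissue content were compared for signs that could touch the members. Array pairs correlated between 0.981 and 0.994, and no 2 arrays were identical. The neuron score, the mean log2 signal of 6 neuron markers without Snap25 relative to their means, ran from −0.04 to −0.03 in withaferin A arrays, from −0.04 to 0.04 in celastrol arrays and from −0.01 to 0.06 in DMSO arrays. The oligodendrocyte score (6 genes) ran from −0.13 to 0.07 in withaferin A arrays, from −0.12 to −0.08 in celastrol arrays and from 0.05 to 0.20 in DMSO arrays. The pituitary score (4 genes) of celastrol replicate 2 was 2.59, and on the other celastrol arrays it was −0.02, 0.10 and 0.19. It ran from −0.47 to 0.08 in withaferin A arrays and from −0.80 to −0.21 in DMSO arrays. All 4 celastrol arrays thus scored above all 4 DMSO arrays, although the groups overlapped in each single marker. After celastrol 3 of these 4 markers were higher at an unadjusted limma p under 0.05, where 626 of all 14953 genes were. None of the 4 passed. Of 11 hypothalamic markers, 10 passed the filter on dim genes. After celastrol 1 of these 10 fell (limma adjusted p = 0.0179), where 47 of all 14953 genes fell. Values lay below 0 for 8 of the 10, against 8585 of all genes. Before adjustment 5 of the 10 had a limma p under 0.05 (1 higher, 4 lower), against 10.4% of all genes. Of the 6 tested oligodendrocyte markers, 1 fell after celastrol (limma adjusted p = 0.0229). Before adjustment, 5 of these 6 had a limma p under 0.05 (1 higher, 4 lower), where 10.4% of all genes did. Their differences ran from −1.003 (Opalin) to 0.31 (Mobp). After withaferin A none of either list passed (limma), where 0% of all genes did. Before adjustment 4 of 10 hypothalamic and 3 of 6 oligodendrocyte markers were lower at a limma p under 0.05. Of all 14953 genes, 1362 were. None of the tested astrocyte (6), microglia (4) and cortex (2) markers passed against DMSO (limma). Before adjustment 1, 1 and 2 of them had a limma p under 0.05 after withaferin A, where 15.7% of all genes did. After celastrol 2, 1 and 1 did, where 10.4% did. All were lower except 1 cortex marker after withaferin A. All 6 astrocyte markers had values below 0 after withaferin A, against 7707 of all 14953 genes. The part of all these markers in the members' values was not tested.

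Some members varied widely among arrays of the same group. The median within-group SD was 0.0904 over the members and 0.107 over all genes. Syt7, a calcium sensor of slow release and vesicle replenishment, had an SD of 0.256, at the 97.9th percentile of all genes, and Sv2b, a relative of Sv2a in the vesicle membrane, had 0.181 (88.6th percentile). Syt4 had 0.042 (1.99th percentile), the lowest among the members.

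This variation was set beside the thalamus score after each array's group mean was removed. The score is the mean of 7 thalamic markers: Tcf7l2, Prkcd, Lef1, Rora, Calb2, Slc17a6 and Plekhg1. Of these, Slc17a6 was also in the list of other vesicle membrane genes, and its part in the correlations was not tested. Thalamic tissue borders the hypothalamus, and the score ran from −0.41 to 0.34 in withaferin A arrays, from −0.17 to 0.57 in celastrol arrays and from −0.56 to 0.42 in DMSO arrays. Syt7 had 9.48, 9.49, 9.93 and 9.97 in withaferin A hypothalami, 9.79, 9.39, 9.97 and 9.34 in celastrol hypothalami, and 9.71, 9.48, 9.48 and 9.85 in DMSO hypothalami. In each group the 2 arrays with the higher scores had the higher Syt7. Over the 12 arrays Pearson's r was 0.922 (exact permutation p = 7.23e-05, the smallest that 13824 rearrangements within groups allow) and Spearman's rho was 0.825 (exact permutation p = 0.000217). Adjusted over 14946 genes the p-values were 0.0386 and 0.0636, so the first passed 0.05 and the second did not. Without the 2 arrays farthest from the median, DMSO replicate 4 and celastrol replicate 3, r was 0.908.

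Sv2b had 10.47, 10.57, 10.73 and 10.87 in withaferin A hypothalami, 10.80, 10.53, 10.88 and 10.46 in celastrol hypothalami, and 10.54, 10.30, 10.41 and 10.67 in DMSO hypothalami. Its r was 0.917 (exact permutation p = 0.000506, adjusted 0.062) and rho was 0.825 (exact permutation p = 0.000868, adjusted 0.099). Without the same 2 arrays r was 0.881. Of the 62 members 1 passed the adjusted threshold, against 0.595% of the 14946 genes (89 genes), and 16 had an unadjusted p under 0.05 (10 positive, 6 negative), against 8.46% of all genes. By size of r, Syt1 (0.827), Nsf (0.823) and Syt9 (0.797) came next among the positive ones and did not pass. This relation was looked for after the data had been seen. With the thalamus score as a covariate, 0 members passed in each of the 3 comparisons, and Syt7 differed from DMSO by 0.01 ± 0.07 after withaferin A and by −0.16 ± 0.08 after celastrol, against 0.09 ± 0.15 and −0.0085 ± 0.15 without it. Why the score and Syt7 move together was not tested.

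**Figure D4:**
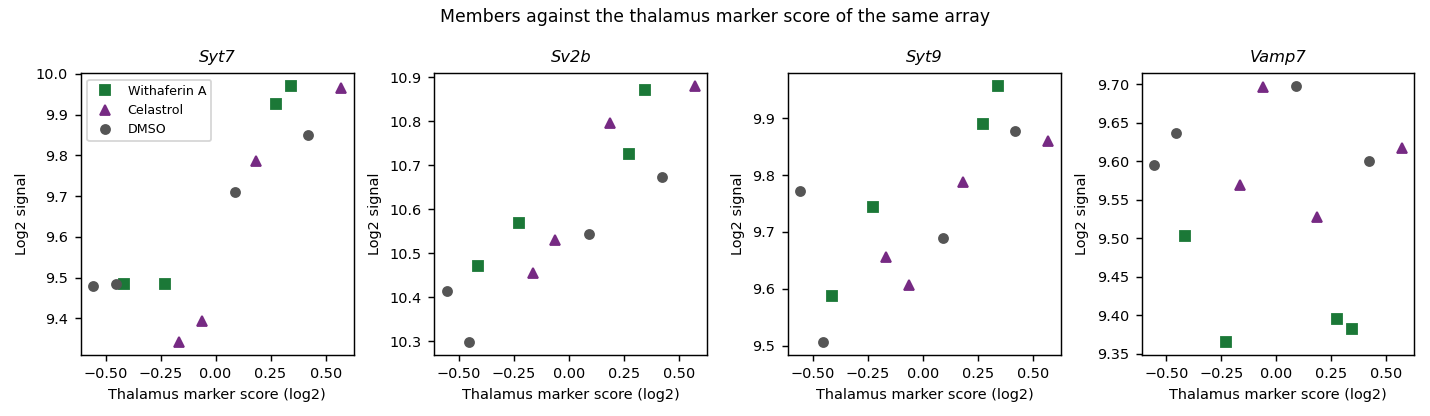
Log2 signal of Syt7, Sv2b, Syt9 and Vamp7 (vertical axes) against the thalamus marker score of the same array (horizontal axes, log2 relative to the mean), with symbols for withaferin A, celastrol and DMSO arrays. Syt7 and Sv2b climb with the score within the groups, and Vamp7 is lower in all 4 withaferin A arrays than in the other 8.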

How the data were processed

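Gene expression was measured on 12 Affymetrix arrays of mouse hypothalamus, 4 each for withaferin A, celastrol and DMSO. The deposited values are log2 signals that the authors made with RMA, per the submitters' processing notes; software and version are not given in the sources used here. Arrays give no read depth, so their number limits the precision. Probe sets were named from the platform annotation: 21789 of 35556 had 1 gene symbol, 1621 several and 12146 none. The brightest single-symbol probe set stood for each of 19938 genes. Dim genes, whose mean fell under the 25th percentile (5.81), were dropped, and 14953 were tested in limma 3.58.1 (R 4.3.3) with 1 mean per group, two-sided, with Benjamini-Hochberg adjustment over all genes and a threshold of 0.05. The fit was tested on simulated data.

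The members and lists were chosen with earlier results of these data known. The rule for naming took, in each comparison, a fixed core, any member past the threshold and the 6 members of smallest p. Of each list it took the gene of smallest p. Not every value of these genes is printed. Of the list genes, only Stxbp4, Stxbp3, Slc32a1 and Sypl are, and most core genes have main values only against DMSO. The correlations with the thalamus score, adjusted over 14946 genes, and the fit with it as covariate were added after the data had been seen. Alternatives covered the filter, the probe set rule, scaling, priors, array weights, the groups fitted, the replicate block and each array left out. The main fit did not pair arrays by replicate number. Of 12 same-numbered pairs of arrays, 2 correlated above 0.1 in their deviations from the group means. This check could miss a weak effect shared by arrays of the same number. Coordinates and promoters come from RefSeq GRCm38.p6.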

Additional observations from a re-analysis of the deposited data

Results flagged for a closer look

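In each member and group of 4 arrays, the array farthest from the others was compared with the group's range. Of 186 groups, 9 held an array whose gap to the nearest other exceeded 0.829 of the range, where chance flags about 5% of groups. Among withaferin A arrays, Unc13a was 10.0016 in replicate 1, against 10.20 to 10.22 in the others, and Stx1a was 8.82 in replicate 4, against 8.65 to 8.67. Stx3 was 8.62 in replicate 3, against 8.73 to 8.75, and Syp was 12.18 in replicate 3, against 12.09 to 12.11. Syt17 was 9.43 in replicate 2, against 9.58 to 9.62, Vamp4 was 9.06 in replicate 2, against 9.26 to 9.30, and Vamp1 was 10.84 in replicate 4, against 10.93 to 10.95. Among DMSO arrays, Cplx2 was 9.09 in replicate 4, against 9.14 in the others, and Vamp4 was 9.52 in replicate 1, against 9.29 to 9.31.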

How the results depend on the processing

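The count of members called was 0 in all 72 alternative values (24 settings in 3 comparisons), and 0 of 1365 values of the members named by rule had an adjusted p under 0.05. The background count of all genes called moved more. In celastrol against DMSO hypothalami, where it was 115, it was 60 without the filter on dim genes, 5 over every probe set, 195 with an intensity trend and robust prior, 219 with array weights, 182 with only the 2 groups fitted and 212 at a threshold of 0.10. With the replicate block it was 54, and members called stayed 0; a sample correlated best with its own number in 2 of 24 choices. In withaferin A against DMSO hypothalami (0) it was 8 with the trend, 21 with array weights, 8 at 0.10 and 4 with the thalamus covariate. In withaferin A against celastrol hypothalami (7) it was 11 without the filter, 13 at the 50th percentile, 0 over every probe set, 29 with the trend, 19 with array weights, 0 with only the 2 groups fitted and 77 at 0.10. Leaving out DMSO replicates 1 to 4 in turn gave 20, 6, 62 and 32 in celastrol against DMSO hypothalami, leaving out celastrol replicates 1 to 3 gave 67, 17 and 12, and leaving out withaferin A replicate 1 gave 207. In withaferin A against DMSO hypothalami the counts were 172 without DMSO replicate 3, 1 without withaferin A replicate 3 and 0 otherwise. Between the agents they were 1, 0 and 15 without celastrol replicates 2 to 4, and 56, 1 and 0 without withaferin A replicates 1, 2 and 4. Members' medians moved to 0.0485 and 0.0408 after renewed quantile normalization (withaferin A against DMSO, and against celastrol) and to −0.00517 after centring (against celastrol). They ran from −0.0376 to −0.0091, −0.0122 to 0.0105 and 0.0135 to 0.0381 without 1 array, the last without celastrol replicate 1. Reversed signs were all among differences near 0 that had not passed the test. After renewed quantile normalization these were Snap25 0.0979 and Cplx2 0.00436 (celastrol against DMSO), Snap25 0.0743, Nsf 0.0146, Syn1 0.0278, Syn2 0.0243, Syp 0.0271 and Sv2a 0.0485 (withaferin A against DMSO), and Snap25 −0.0236 and Syp 0.00869 (between the agents). After centring they were Snap25 0.00739 and Cplx2 0.00577 (celastrol), Cplx2 −0.00696 (withaferin A), and Syt1 −0.0144, Snap25 −0.0218, Cplx2 −0.0127 and Syn2 −0.00901 (between the agents). With array weights they were Stx1a 0.0351 and Snap25 0.0076 (celastrol), Snap25 0.00353 and Sv2a 0.012 (withaferin A), and Snap25 −0.00407 (between the agents), and with the thalamus covariate Cplx1 −0.0332 and Syp −0.0232 (celastrol). Without 1 array, celastrol against DMSO ran from −0.0451 to 0.0346 for Snap25, −0.0207 to 0.0342 for Syp, −0.0847 to 0.0488 for Stx1a, −0.0473 to 0.0624 for Cplx1, −0.0293 to 0.0143 for Cplx2, −0.00395 to 0.0577 for Vamp1 and −0.0459 to 0.00758 for Rims1. Withaferin A against DMSO ran from −0.0437 to 0.036 for Snap25, −0.0139 to 0.0249 for Sv2a, −0.0126 to 0.0175 for Cplx2, −0.0441 to 0.0109 for Syp and −0.00443 to 0.0923 for Rims1. Between the agents the ranges were −0.0273 to 0.0361 for Syt1, −0.00286 to 0.0417 for Syn2, −0.0298 to 0.0194 for Snap25, −0.0125 to 0.0972 for Cplx1 and −0.0109 to 0.0326 for Cplx2. The cause of these changes was not tested.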

Other observations

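The probe set shared by Ubr3 and Vamp2 cannot be given to either gene. It differed by 0.01 ± 0.05 (SE) between withaferin A and DMSO hypothalami, by −0.06 ± 0.05 between celastrol and DMSO hypothalami and by 0.07 ± 0.05 between withaferin A and celastrol hypothalami. The dim members outside the tests had mean log2 signals of 5.48, 5.34 and 5.35 for Cplx3, 4.64, 4.44 and 4.61 for Cplx4, and 5.30, 5.09 and 5.19 for Stx19 in withaferin A, celastrol and DMSO hypothalami.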
